A study of Mus musculus with 14 samples.

Results

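Adult brain was set against brain at postnatal day 7 (P7) in mice without tenascin-R, across all genes that the arrays measured. The comparison uses the 7 knockout arrays of 14 in the series, chosen by their sample titles: 4 of Tnr null mice at P7 and 3 of Tnr null adults. Per the labels, each sample was total RNA of the entire brain of a male C57Bl mouse, aged P7 or 2 to 3 months, with no treatment named. The other 7 arrays hold wild-type brain of the same ages, 4 at P7 and 3 adult. They are set beside the knockout further below. They also enter the same fit, so they bear on its filter, floor and variance. Both knockout groups carry the same null genotype, so the contrast is one of age and of anything that went with age. The labels do not say that each array came from a separate mouse, so the p-values cover the spread among these samples, part of which can be technical.

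Tenascin-R is a glycoprotein of the neural extracellular matrix, made by oligodendrocytes and some neurons, which links hyaluronan-bound proteoglycans such as brevican and neurocan into the perineuronal nets around fast-firing neurons. In the mouse forebrain, P7 falls between the end of most neuron production and the peak of myelination and synapse formation. Between that age and adulthood progenitor and growth-cone genes are switched down, oligodendrocytes wrap axons, and receptors, channels and enzymes exchange early for late forms.

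The arrays gave 1 intensity per probe set, and 8355 of the 12422 that are no controls lay high enough to be tested. Signals below were scaled so that the median of these probe sets was the same on every array, and any value under 10.15 (the 20th percentile) was set to that floor. Differences are log2 of adult over P7 signal with the standard error (SE) of a limma fit, and a probe set was called at an adjusted p (Benjamini-Hochberg over all 8355) under 0.05. A signal depends on its probes, so levels were compared between ages and never between genes. The array had 0 probe sets for Tnr, so the genotype could not be read from its target. Neuronal, astrocyte and oligodendrocyte markers were all present: Snap25, S100b and Mbp were above the floor on each of the 7 knockout arrays.

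The knockout arrays parted by age. Correlations of log2 signal were 0.944 to 0.958 among the adult arrays, 0.895 to 0.957 among the P7 arrays and 0.817 to 0.870 between the ages, and the leading principal component of the 7 arrays accounted for 54.9% of variance. A further 20.4% lay on a component that set P7 arrays 1 and 3 apart from P7 arrays 2 and 4. The signals of 878 probe sets (10.5% of those tested) differed at least 2-fold between these 2 pairs with no overlap, and 146 of them are among the calls below, 6.41% of all calls. P7 array 1 also had a ratio of 3′ to 5′ Gapdh control signal of 0.789, against 2.77 to 3.50 on the other P7 knockout arrays and 0.768 to 0.872 on the adult knockout arrays. On the wild-type arrays it was 2.25 to 2.82 at P7 and 0.79 to 0.90 in adults. The ratio reads the length of the labelled RNA, and apart from P7 array 1 it parted the ages. The same ratio for actin overlapped, at 0.94 to 1.77 on the P7 and 1.13 to 1.43 on the adult knockout arrays. The part of RNA length in the age differences was not tested and cannot be told apart from age here. Leaving P7 array 1 out removes the only P7 array with a Gapdh ratio like the adults.

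A large part of the measured genes changed with age in the knockout brain. Of 8355 probe sets, 1017 (12.2%) were called higher in adults and 1262 (15.1%) lower, and they stand for 812 and 1092 genes, with 10 genes in both directions through different probe sets. The rises were the larger changes: 669 rises and 523 falls were at least 2-fold, and 212 rises against 74 falls at least 4-fold. More of the rises touched the floor, 174 on some P7 array, against 28 falls on some adult array. The low end of the arrays also differed with age. The deposited 20th percentile was 6.84 to 8.28 on the P7 and 13.8 to 14.7 on the adult knockout arrays. Its part in the size of the rises was not tested. The balance of rises and falls depends on the scaling, since with the deposited scaling 1349 probe sets were higher and 937 lower, 59% rises against 44.6% here. The median difference over all probe sets was -0.01 here and 0.12 with the deposited scaling, so changes are given relative to it. Dropping the filter on low signals also moves the scaling to the median of all 12422 probe sets. With it dropped, 877 were higher and 1893 lower, 31.7% rises. In that fit 596 of the 1017 rises and 1259 of the 1262 falls were still called. The difference of Vamp1 went from 3.22 to 3.01 there and that of Apoe from 0.08 to -0.14. Filter, scaling and the number of probe sets tested change together in that fit. The part of each in the lost rises was not tested. With the knockout arrays alone in the fit, 744 were higher and 1031 lower. Without adult array 2 the calls fell to 671 higher and 897 lower. Among calls, 92.7% had no overlap between the 4 P7 and the 3 adult signals, against 34.5% of all probe sets. The count of 1 probe set per gene, used for the gene lists below, was 688 of 6257 genes higher (11%) and 1047 lower (16.7%), with a median difference of -0.04.

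**Figure D1:**
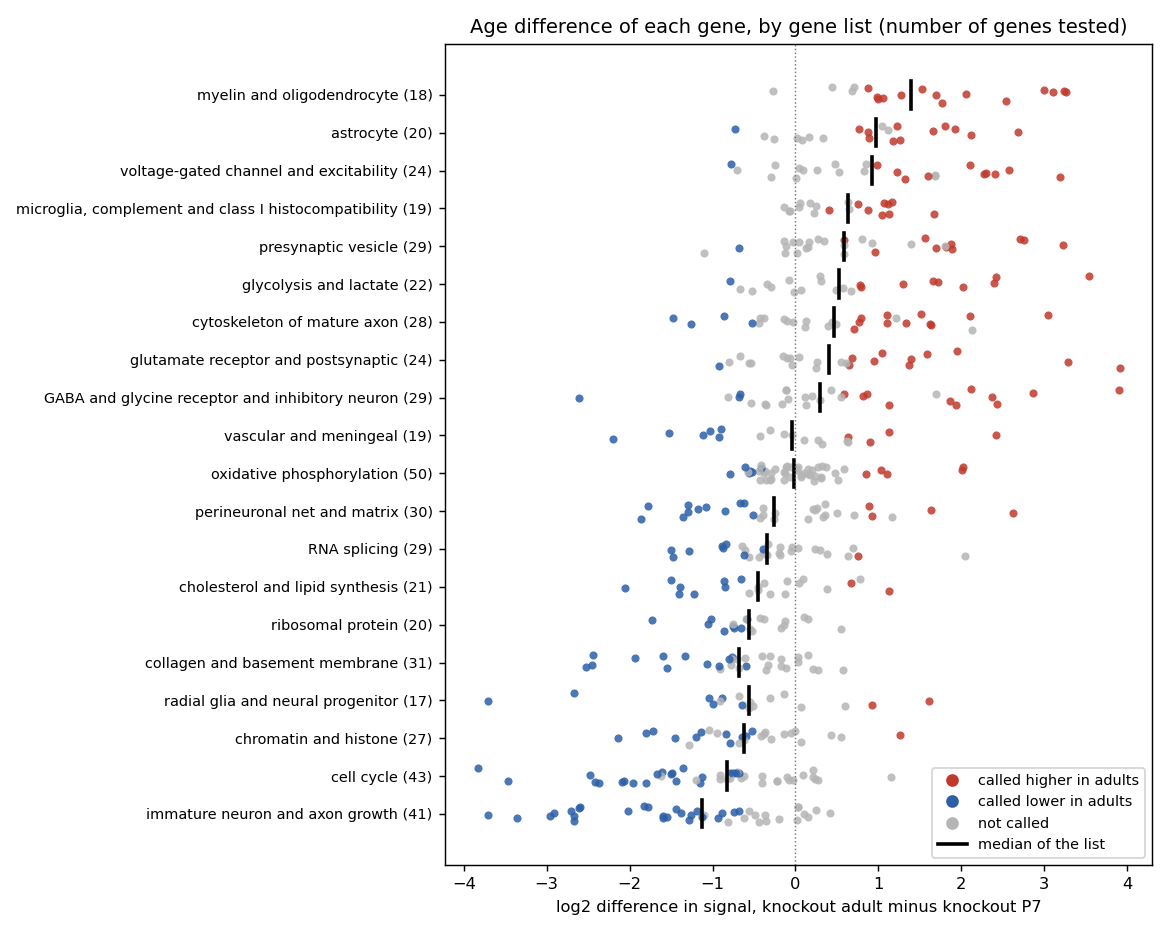
Log2 difference of knockout adult minus knockout P7 signal (horizontal axis) for every tested gene of 20 gene lists (rows, with the number of genes tested). Red points were called higher in adults, blue points lower, grey points not called, and the black bar is the median of the list, which runs from -1.13 for immature neuron and axon growth to 1.40 for myelin and oligodendrocyte.

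Myelin genes rose together. Of 18 tested genes of myelin and oligodendrocytes, 14 were called higher and 0 lower, with a median difference of 1.40 against -0.04 over all genes. In whole brain, more cells of a type and more RNA per cell cannot be told apart, and that holds for every cell type named here. Mobp encodes a structural protein of compact myelin. It headed the rises among called probe sets above the floor on all 7 arrays with no overlap between the ages. Its signal was 114, 31.8, 17.9 and 28.4 on the P7 arrays and 860, 780 and 704 on the adult arrays, a 21.2-fold rise (log2 4.40, SE 0.43, adjusted p = 4.5e-06). The lack of overlap was thus a condition of this choice, and P7 array 1 was the highest of its age. The other 3 Mobp probe sets rose by 2.90 to 5.95. Mbp, the major cytoplasmic myelin protein, read 2421, 1224, 843 and 1044 at P7 and 4616, 3899 and 3833 in adults (log2 1.69, SE 0.30, adjusted p = 0.00075). A second Mbp probe set did not follow it (log2 -0.23, adjusted p = 0.499).

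Other myelin genes rose as well. Mog, found on the outermost lamella, rose by 3.10 from 30.4, 66.6, 10.15 (the floor) and 35.0 to 233, 227 and 295. Mag, the adhesion molecule that faces the axon, read 370, 95.8, 207 and 54.7 at P7 and 603, 554 and 617 in adults (log2 2.06, SE 0.53, adjusted p = 0.0097). Its P7 signals parted by array pair and all lay under the adult range, but the call was lost with P7 arrays 1 and 3 alone (1.09). A second Mag probe set differed by 0.32 and was not called. Mal, a raft protein of myelin membrane, rose by 2.54, and Septin4, a filament protein of the myelin sheath, by 3.00 from between 125 and 182 to between 1230 and 1288. The gap junction protein Gjb1 rose by 1.77, the carbonic anhydrase Car2 by 1.52 and the myelin transcription factor Myrf by 1.06. The 4 list members not called were Nkx6-2 (0.71), Ptgds (0.68), Gsn (0.44) and Sox10 (-0.27); 2 other Ptgds probe sets were called higher (0.69 and 0.93). Sox10 marks the whole lineage, precursors included. Of 5 precursor genes tested, 0 were higher and 2 lower, Pdgfra (-0.85), the receptor that drives precursor division, and Sox4 (-2.70), which immature neurons share. The other 3 ranged from -0.71 to 0.05.

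Astrocyte genes rose in the main but not as a block. Of 20 tested, 11 were called higher and 1 lower, with a median of 0.97. S100b, a calcium-binding protein of mature astrocytes, rose 6.44-fold, from 115, 106, 71.5 and 123 to 686, 560 and 732 (log2 2.69, SE 0.23, adjusted p = 1.2e-06). Gjb6, the connexin that appears late in astrocytes, rose by 2.12. Mt1, a metal-binding metallothionein, rose by 1.92, Ndrg2 by 1.80 and Aldoc, the brain aldolase of astrocytes and Purkinje cells, by 1.66. The lipid carrier Apoe (0.08), the connexin Gja1 (0.01) and the water channel Aqp4 (0.16) were among the 8 members not called, which ranged from -0.38 to 1.11. A second Aqp4 probe set was called higher (1.51). Gfap, the intermediate filament of astrocytes, was lower in adults by 1 probe set, at 678, 894, 632 and 626 against 438, 483 and 352 (log2 -0.73, SE 0.17, adjusted p = 0.0048). Its other probe set differed by 0.13 and was not called.

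The genes of radial glia and progenitors fell in part. Of 17 tested, 6 were lower (35.3%) and 2 higher (11.8%), beside 16.7% and 11% of all genes, so the rises lay near the share of all genes. Fabp7, the brain lipid-binding protein of radial glia, fell by 3.71, from 2815, 3266, 3108 and 4209 to 213, 245 and 312 (SE 0.24, adjusted p = 1.7e-07). Nes, the progenitor intermediate filament, read 157 to 213 at P7 and 69.7 to 124 in adults (log2 -0.99). Id3 and Id4, inhibitors of differentiation factors, fell by 1.05 and 0.88, and the Id4 call was lost with P7 arrays 1 and 3 alone (-0.51). The 2 rises were Vim (1.61) and Prom1 (0.92), the latter not called by its other probe set (0.51). Vim encodes the vimentin filament of radial glia and also of vessels, and its signal was close to the floor at P7 (21.2, 10.6, 22.2 and 10.2) and 42.1 to 48.5 in adults. The call was lost without P7 array 2 or 4 (1.43 and 1.42) and without adult array 2 or 3 (1.60 and 1.67).

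**Figure D2:**
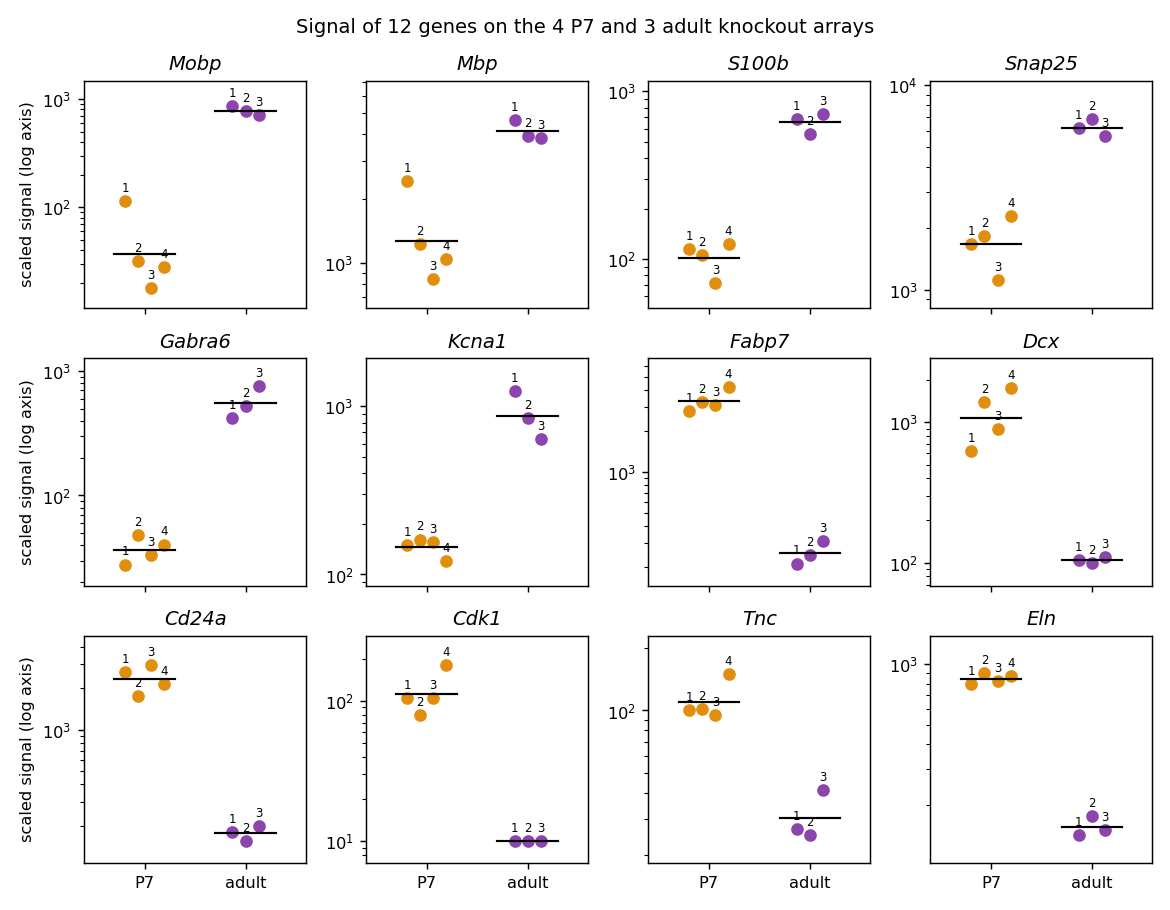
Scaled signal (vertical log axis) of 12 genes on the 4 P7 and the 3 adult knockout arrays; each point is 1 array with its number and each bar the geometric mean of its age. Adult and P7 points do not overlap for any of the 12, a condition of choice for some, among them Mobp. The adult Cdk1 points all lie at the floor of 10.15.

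Genes of immature neurons fell. Of 41 tested genes of young neurons and growing axons, 25 were called lower and 0 higher, with a median of -1.13. Cd24a, a surface glycoprotein of newborn neurons, fell 13.1-fold, from 2610, 1759, 2951 and 2150 to 179, 156 and 201 (log2 -3.71, SE 0.21, adjusted p = 3.8e-08). Dcx, the microtubule protein of migrating neurons, read 619, 1395, 890 and 1759 at P7 and 105, 99.5 and 111 in adults (log2 -3.36, SE 0.34, adjusted p = 6.5e-06). The spread of Dcx at P7 was wide, and the adult arrays agreed far more closely. Marcksl1, a membrane substrate of protein kinase C in growth cones, fell by 2.97, its relative Marcks by 2.59 and Crmp1, which relays semaphorin signals, by 2.67. The transcription factors Sox11, Sox4 and Dlx2 fell by 2.67, 2.70 and 2.91; Sox11 and Sox4 act in newly formed neurons and Dlx2 in young inhibitory neurons.

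Other members of the list fell by smaller amounts. Gap43 of the growth cone read 3399, 2383, 2139 and 2816 at P7 and 1234, 936 and 1358 in adults (log2 -1.19). The neuronal tubulins Tubb3 and Tuba1a fell by 1.45 and 1.28 and Basp1 by 1.13. Tmsb10, an actin-binding peptide, fell by 2.01. Stmn1, the tubulin-binding stathmin, differed by -0.49 and missed the threshold (adjusted p = 0.053). Its adult signals lay under all P7 signals, but 34.5% of all probe sets had no overlap between the ages. Among guidance and adhesion molecules the receptors Nrp1 and Robo1 fell by 1.38 and 1.83, the latter by 1.13 without adult array 2, and Ncam1 by 1.77. A second Nrp1 probe set differed by -0.45 and was not called. The 16 members of the list not called ranged from -1.10 to 0.41.

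Several of the largest falls were in genes that no list holds. Bzw2, which tunes start codon choice in translation, fell by 3.69 from between 1108 and 1835 to between 106 and 124. Traf4, an adaptor with roles in neural tube and cytoskeleton, fell by 3.67 by 1 probe set and by 1.43 by the other. Mapk7, the kinase ERK5, fell by 3.61. Nt5dc2 fell by 3.58, from 510, 782, 668 and 571 to 66.5, 46.8 and 46.2. Rac3, a small GTPase of neurite growth, fell by 2.92. Mycn, the N-myc oncogene of progenitor growth, fell by 3.01, from 238 to 344 down to 26.3 to 43.1. Csrp2, a LIM-domain protein, fell by 3.25, and its relative Csrp1 moved the opposite way, rising by 3.41 from 244, 76.7, 78.9 and 63.0 to 1216, 1022 and 921.

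Genes of the cell cycle fell with age. Of 43 tested, 21 were lower and 0 higher, with a median of -0.82. Cdk1, the kinase that drives mitosis, read 105, 78.9, 105 and 180 at P7 and lay at the floor on all 3 adult arrays, at least 11-fold lower (adjusted p = 8.7e-06). Cks1b, a small partner of the cyclin-dependent kinases, likewise reached the floor, from 128, 145, 111 and 213, at least 14.3-fold lower. Top2a, which untangles chromosomes, was at least 4.19-fold lower, a call lost with P7 arrays 1 and 3 alone. Mki67, the proliferation antigen, was at least 8.98-fold lower by 1 probe set, whereas the other differed by -0.23 and was not called. Ccnb2 and Cdc20, the mitotic cyclin and the activator of its destruction, fell by 1.48 and 1.67, the latter from between 188 and 320 to between 59.97 and 91.6. Ccnd2, the cyclin of neural progenitors, fell by 2.37, and Cdkn1c, an inhibitor that marks cells leaving the cycle, by 2.10. The 22 members not called ranged from -1.62 to 1.15. Among them were replication genes, Pcna (-0.62) and Mcm3 (-0.66). Their adult signals lay below all P7 signals, but 34.5% of all probe sets had no overlap between the ages.

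Many mitotic genes share promoter elements that tie their transcription to cell division: the cell cycle homology region (TTTGAA), bound by the DREAM and MuvB complexes, and the CCAAT box (CCAAT), bound by NF-Y. Both were searched, on either strand, in the RefSeq promoter windows (GRCm38.p6, 250 bases before to 50 after each start). Of the 21 cell cycle genes called lower, 17 had windows, 19 in all. TTTGAA was in 10 of the 19 (52.6%) and CCAAT in 15 (78.9%). The shares were 17.9% and 37.4% over all 32851 windows, and 11.9% and 37% over the windows of the genes tested. An E2F site, spelled TTTGGCGC, TTTCGCGC, TTTCCCGC or TTTGCCGC, was in 4 (21.1%), against 3.81% for the genes tested. Among all genes called lower, the shares were 11.9%, 37.3% and 4.37%, close to those of the genes tested. These are counts of letters and carry no test. At least 1 TTTGAA and 2 CCAAT stood together in 8 of the 19 windows, and 4 windows held neither, among them those of the mitotic genes Birc5 and Mad2l1. The Mad2l1 call (-1.13) was itself lost without P7 array 2 or 4 or any adult array (-1.003 to -1.18). Of the 8, the windows of 4 genes described above are shown as examples, chosen with their motifs seen. Capitals mark those motifs on either strand (TTCAAA and ATTGG are the reverse strand) and, in Cdk1, 1 E2F octamer.
Cdk1, chr10:69352863-69353162, minus strand: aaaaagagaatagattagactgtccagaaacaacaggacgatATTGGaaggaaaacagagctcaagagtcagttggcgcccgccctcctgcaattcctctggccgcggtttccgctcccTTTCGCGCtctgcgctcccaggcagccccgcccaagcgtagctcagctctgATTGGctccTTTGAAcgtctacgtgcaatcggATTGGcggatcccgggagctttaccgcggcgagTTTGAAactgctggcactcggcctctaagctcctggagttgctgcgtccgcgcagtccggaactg
Cks1b, chr3:89418242-89418541, minus strand: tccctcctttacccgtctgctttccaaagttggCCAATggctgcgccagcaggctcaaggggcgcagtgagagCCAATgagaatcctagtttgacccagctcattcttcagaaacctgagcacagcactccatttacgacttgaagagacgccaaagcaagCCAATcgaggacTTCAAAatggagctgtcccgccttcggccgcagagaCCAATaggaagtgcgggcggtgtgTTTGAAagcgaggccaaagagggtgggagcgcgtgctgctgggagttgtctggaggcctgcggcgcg
Cdc20, chr4:118437294-118437593, minus strand: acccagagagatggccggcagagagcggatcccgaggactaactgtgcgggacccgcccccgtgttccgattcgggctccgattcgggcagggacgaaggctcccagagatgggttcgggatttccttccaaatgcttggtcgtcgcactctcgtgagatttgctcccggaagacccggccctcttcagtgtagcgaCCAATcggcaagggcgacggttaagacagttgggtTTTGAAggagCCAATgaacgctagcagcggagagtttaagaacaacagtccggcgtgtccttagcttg
Ccnb2, chr9:70421505-70421804, minus strand: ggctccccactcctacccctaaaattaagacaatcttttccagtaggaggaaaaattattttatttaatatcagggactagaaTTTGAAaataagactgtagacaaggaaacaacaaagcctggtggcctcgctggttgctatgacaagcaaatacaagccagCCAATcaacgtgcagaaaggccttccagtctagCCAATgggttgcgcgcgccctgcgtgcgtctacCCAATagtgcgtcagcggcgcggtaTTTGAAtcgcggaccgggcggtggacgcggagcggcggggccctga

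Genes of chromatin, splicing and ribosomes also fell in part. In chromatin, 11 of 27 tested genes were lower and 1 higher, with a median of -0.62. Hmgb3, a DNA-bending protein of progenitors, fell by 2.15 from 1529, 2510, 2229 and 2759 to 535, 479 and 483. Hmgn1, which loosens nucleosomes, fell by 1.72, the methyltransferase Ezh2 by 1.80 and the deacetylase Hdac2 by 1.45. Hdac1 was the rise (1.26), from 24.6, 36.8, 24.0 and 73.0 to 93.1, 82.2 and 80.7, a call lost without any single knockout array except P7 array 4 (1.07 to 1.30). Of 29 splicing genes, 8 were lower, led by Hnrnpd (-1.51), Srsf6 (-1.48) and Srsf2 (-1.28), and 1 was higher. Of 20 ribosomal protein genes, 8 were lower and 0 higher, led by Rplp0 of the ribosomal stalk (-1.73), Rpsa (-1.05) and Rps18 (-1.02). Ribosomal protein genes have many near-identical pseudogenes, so their probes are less certain than others.

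Synaptic genes rose in part, and the presynaptic list parted the P7 arrays by pair. Of 29 tested presynaptic genes, 10 were higher and 1 lower, with a median of 0.59. Snap25, a core protein of vesicle fusion, read 1679, 1837, 1117 and 2289 at P7 and 6191, 6832 and 5666 in adults (log2 1.89, SE 0.21, adjusted p = 1.9e-05). Nsf, the ATPase that takes the fusion complex apart, rose by 1.88 from between 380 and 541 to between 1343 and 2206. Vamp1, the vesicle partner of Snap25 in fast synapses, read 124, 18.4, 198 and 12.2 at P7 and 333, 521 and 535 in adults (log2 3.22, SE 0.88, adjusted p = 0.013). Its P7 signals were high on arrays 1 and 3 and low on 2 and 4, and its rise was 3.90 without P7 array 3 and 2.56 without P7 array 4. The Vamp1 call was lost with P7 arrays 1 and 3 alone (1.53) and with no filter (3.01), and a second probe set was not called (1.19). Cplx1, which clamps the fusion complex, read 1423, 58.2, 423 and 182 at P7 and 1521, 2381 and 1760 in adults (log2 2.71, but 3.49 without P7 array 1 and 1.95 without P7 array 2). Syt1, the calcium sensor of release, read 1136, 293, 951 and 250 against 772, 1954 and 1788, overlapped between the ages and was not called (1.39, adjusted p = 0.077). Syp, the vesicle protein synaptophysin, read 510, 88.6, 439 and 117 against 713, 884 and 718 and was not called either (1.81). The 18 members not called ranged from -1.11 to 1.81. Slc32a1, the vesicular GABA transporter, was the fall (-0.68).

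**Figure D3:**
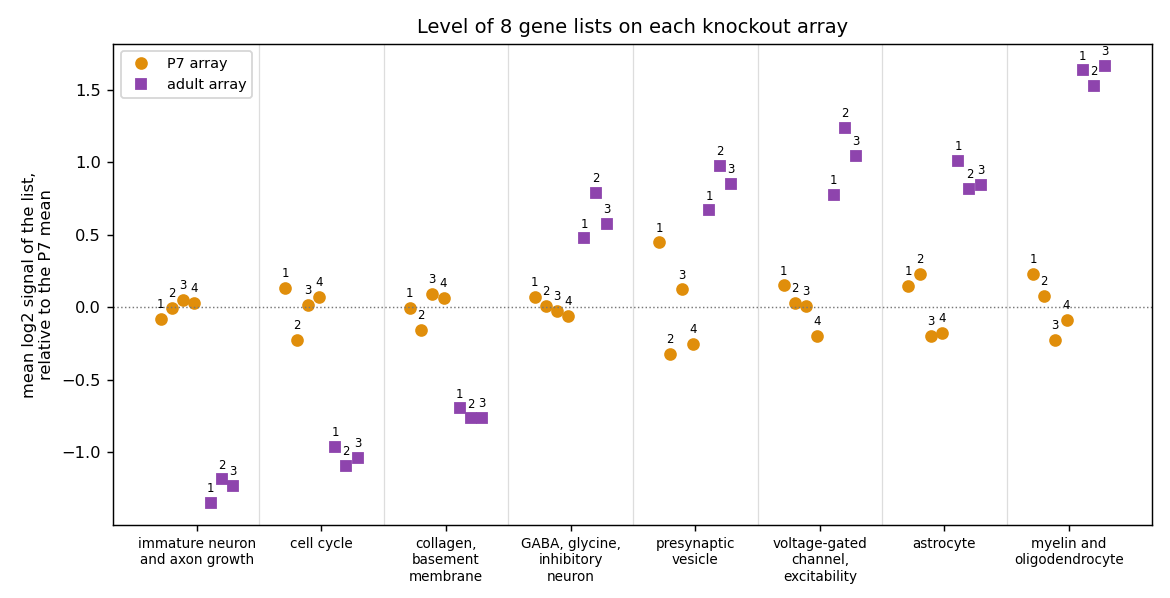
Mean log2 signal of 8 gene lists on each knockout array (numbered points), relative to the mean of the P7 arrays. Adult arrays lie apart from P7 arrays for all 8 lists; the presynaptic list spans -0.32 to 0.45 among P7 arrays, against -0.08 to 0.05 for immature neuron and axon growth.

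Glutamate receptor genes rose in part. Of 24 tested genes of glutamate receptors and the postsynapse, 10 were higher and 1 lower, a median of 0.41; without adult array 2 or 3 the rises numbered 6 or 5. Gria3, an AMPA receptor subunit, lay at the floor on all 4 P7 arrays and at 98.2, 214 and 172 in adults, at least 15.1-fold higher (adjusted p = 7e-07). Gria1 and Gria4 rose by 1.37 and 1.95, and a second Gria1 probe set by 2.52. Gria2, the subunit that blocks calcium entry, was not called by 1 probe set (0.26), and its 2 other probe sets were called higher (0.74 and 1.38). Among NMDA subunits, Grin2c, the late cerebellar form, rose by 0.94, a call lost without P7 array 4 (0.78) or any adult array (0.92 to 0.98), and Grin2b, the early forebrain form, differed by 0.61 without a call, at 118, 17.4, 40.7 and 17.9 against 41.3, 45.8 and 79.8. Camk2a, the kinase of the postsynaptic density, rose by 3.29, from 63.8, 11.5, 38.1 and 10.2 to 173, 354 and 190. Its P7 signals split by array pair. Homer2, a scaffold protein, fell by 0.92.

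Receptors and enzymes of inhibition rose in part. Of 29 tested genes, 11 were higher (37.9%) and 3 lower (10.3%), beside 11% and 16.7% of all genes. Gabra6, a GABA-A receptor subunit of cerebellar granule cells, rose 15-fold, from 27.9, 48.2, 33.5 and 40.4 to 419, 523 and 765 (log2 3.91, SE 0.31, adjusted p = 8e-07), and by 5.06 on the log2 scale by another probe set. Gabrd, its partner in tonic inhibition, rose by 2.87 and Gabrb2 by 1.86. Gabra3, usually described as an early subunit in cortex, also rose, by 2.43, from the floor or just above it to 34.4, 72.9 and 65.8. Gad2, which makes GABA, rose by 2.37. The calls of Gabrb2 and Gad2 were lost without adult array 2 (1.52 and 1.97), and that of Gad2 also without adult array 3 (2.24). Pvalb, the calcium buffer of fast-spiking cells and Purkinje cells, rose from 857, 1183, 1425 and 1313 to 2074, 1983 and 2154 (log2 0.82, not called with no filter), and a second Pvalb probe set, at the floor on 3 P7 arrays, was called higher. Sst (-0.54) and Cck (0.55), markers of other interneurons, were not called. The falls were Dlx1 (-2.61), Slc32a1 and Reln (-0.67). The Reln call was lost without any single knockout array except P7 array 3 (-0.57 to -0.72), and a second Reln probe set differed by 1.28 without a call. Of the chloride transporters, Slc12a2, which loads chloride into young neurons and is also a glial and epithelial transporter, rose by 1.13 (0.97 and not called without adult array 1), and Slc12a5, which extrudes it from mature ones, differed by 0.30 and was not called.

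Voltage-gated channels rose in 10 of 24 tested genes and fell in 1, with a median of 0.92. Potassium channels of myelinated axons were among the rises. Kcna1 read 151, 162, 157 and 121 at P7 and 1228, 852 and 641 in adults (log2 2.58, SE 0.27, adjusted p = 1e-05), and Kcna2 went from 15.3 to 20.5 up to 117 to 236 (log2 3.19). Their auxiliary subunit Kcnab2 read 260, 92.6, 196 and 36.5 against 386, 793 and 727 (log2 2.40), split by P7 array pair, and its other probe set rose by 1.62. Kcnab1 rose by 2.30 by 1 probe set and was not called by the other (0.31). Of the sodium channels, Scn1a rose by 2.27 and Scn8a, the form of mature nodes of Ranvier, by 1.60, from 182, 97.1, 115 and 80.8 to 262, 488 and 319. Kcna3 was the fall (-0.78), and its call was lost without any single knockout array except P7 array 1 (-0.66 to -0.88).

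Genes of the axonal cytoskeleton rose in part. Of 28 tested genes, 11 were higher (39.3%) and 4 lower (14.3%), beside 11% and 16.7% of all genes. The neurofilament subunit Nefm read 163, 21.7, 131 and 36.6 at P7 and 341, 280 and 223 in adults (log2 2.11), and Nefl rose by 1.33. The Nefm call was lost without adult array 1 or 2 (1.96 and 2.10), with no filter (1.90) and with P7 arrays 1 and 3 alone (0.92). Kif5a, the neuronal kinesin of axonal transport, read 353, 15.4, 129 and 36.4 at P7 and 405, 1011 and 496 in adults (log2 3.05, SE 0.74, adjusted p = 0.0069), and the difference was 3.82 without P7 array 1 and 2.31 without P7 array 2. The P7 signals split by array pair. A second Kif5a probe set lay at the floor on all P7 arrays and was at least 6.204-fold higher in adults. The tubulin Tuba4a rose by 0.80 (not called at 0.59 with P7 arrays 1 and 3 alone, or at 0.58 with no filter) while Tubb5 fell by 1.47. Tubb4a, the oligodendrocyte and late neuronal tubulin, was called at 1.10, with P7 signals of 3990, 1230, 3596 and 1080 split by pair, a call lost with P7 arrays 1 and 3 alone (0.24), with no filter (0.89) and in 11 of the 14 fits that leave out 1 array (0.79 to 1.13). The microtubule-associated protein Mapt, tau, fell by 1.26 and the dendritic Map2 rose by 1.52, with overlapping ages at 212, 60.9, 42.9 and 74.1 against 122, 415 and 237. The Map2 call was lost without P7 array 2, 3 or 4 or adult array 2 or 3 (1.09 to 1.49). With P7 arrays 1 and 3 alone, 7 rises were left in this list. Relative to the P7 mean, the list stood at 0.44, -0.34, 0.12 and -0.22 on the P7 arrays, split by pair.

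Sets of genes described in textbooks as early or late forms of 1 function were counted side by side, with no test between the lists. Of 21 tested late forms, 15 were higher and 1 lower, with a median of 1.23. Relative to the P7 mean, this list stood at 0.47, -0.26, 0.12 and -0.33 on the P7 arrays, split by pair. Of 22 early forms, 6 were lower and 4 higher, with a median of 0.02. The late forms that rose were receptor subunits (Gabra6, Gabrd, Grin2c), channels (Scn1a, Scn8a), enzymes (Camk2a, Eno2, Ldhb), cytoskeleton (Kif5a, Nefm, Tubb4a, Tuba4a), the calcium sensor Syt2 (1.70, and 2.75 by another probe set) and 2 more. The late form that fell was Bcan, the adult-type proteoglycan brevican, at 1253, 1114, 1346 and 635 against 579, 614 and 547 (log2 -0.85, adjusted p = 0.021). The Bcan call was lost without P7 array 3 or any adult array (-0.73 to -0.89). The 5 late forms not called ranged from -0.31 to 0.55. The early forms that fell were Tnc, Tubb3, Vcan, Tuba1a, Nes and Ncan. Those that rose were Gabra3, Vim, Camk2d and Slc12a2, so the list did not move as its name says. The Camk2d rise (1.58) lost its call without P7 array 3 or 4 or any adult array (1.23 to 1.76).

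**Figure D4:**
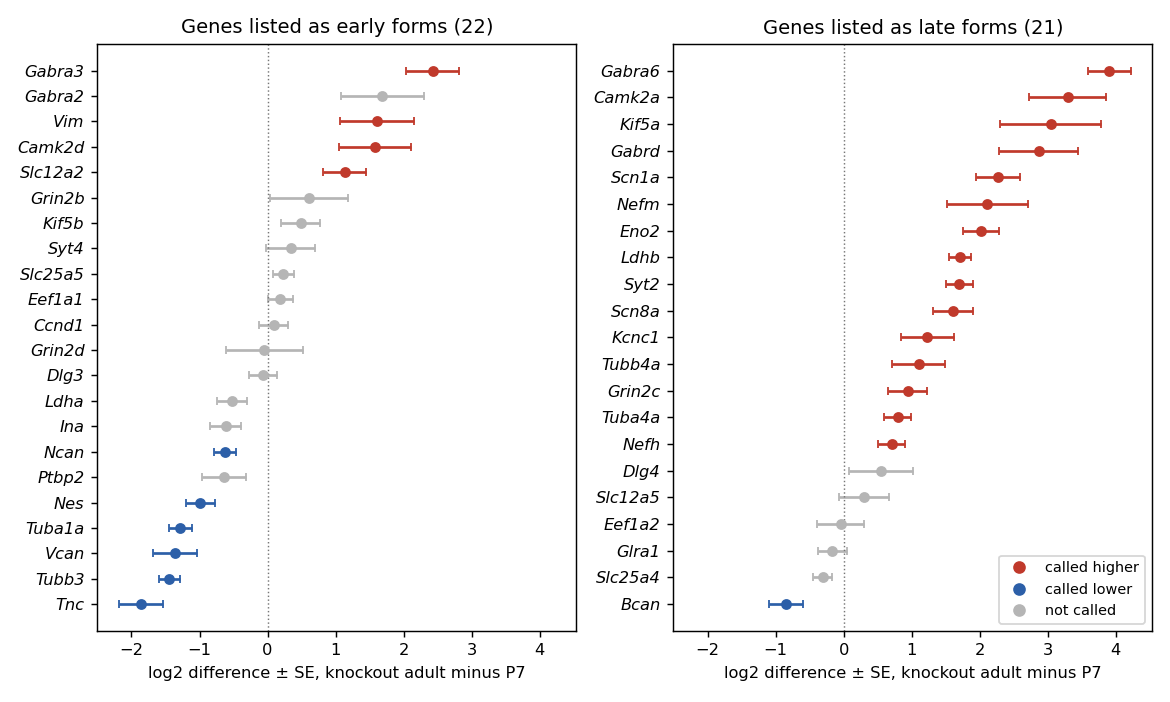
Log2 difference of knockout adult minus P7 signal with its SE (horizontal axis) for genes listed as early forms (left, 22) and late forms (right, 21), sorted by size and coloured by call. Late forms run from -0.85 (Bcan) to 3.91 (Gabra6) and early forms from -1.86 (Tnc) to 2.43 (Gabra3).

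The matrix around the missing protein changed with age too. Of 30 tested genes of perineuronal nets and neural matrix, 11 were lower (36.7%) and 4 higher (13.3%), with a median of -0.25. The shares over all genes were 16.7% and 11%, so the rises lay near theirs. Tnc, tenascin-C, the embryonic relative of tenascin-R, fell by 1.86, from 101, 101, 94.97 and 150 to 26.8, 25.0 and 41.2 (SE 0.32, adjusted p = 0.00064). Versican and neurocan, the hyaluronan-binding proteoglycans that tenascin-R ties together, fell by 1.36 (Vcan) and 0.62 (Ncan), and brevican by 0.85. With P7 arrays 1 and 3 alone Vcan (-0.98) and Ncan (-0.54) were not called. Ptprz1, the phosphatase whose secreted form is phosphacan, fell by 1.30 by 1 probe set, and 2 others were not called (-0.56 and -0.61). Cntn1, the neuronal cell-surface partner of tenascin-R, differed by -0.26 and was not called (0.04 after quantile normalization), at 1276 to 1481 against 1094 to 1209. Dag1, dystroglycan, fell by 1.18 and Agrn, agrin, by 1.30, though a second Agrn probe set differed by 0.26. The 4 rises were Nptx1 (2.63), a synaptic pentraxin, Sdc4 (1.63), a syndecan, and Sparcl1 (0.89) and Sparc (0.92), secreted by glia, the last not called without adult array 2 (0.73).

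Collagens and basement membranes fell in part. Of 31 tested genes, 12 were lower and 0 higher, with a median of -0.68. Elastin (Eln) fell 5.47-fold, from 797, 899, 826 and 872 to 141, 177 and 149 (log2 -2.45, SE 0.15, adjusted p = 1.2e-07). A second Eln probe set differed by -0.47 and was not called. Col3a1, the fibrillar collagen of vessels and meninges, fell by 2.44, Col4a1 and Col4a2 of the vascular basement membrane by 1.93 and 1.34, and Nid2, nidogen-2, to the floor, at least 5.78-fold. Vessel genes moved in both directions. Of 19 vascular and meningeal genes, 4 were higher and 6 lower. The glucose transporter Slc2a1 (2.42) and the efflux pump Abcb1a (1.13), both of the blood-brain barrier, rose, as did the endothelial receptor Flt1 (0.90) and Tagln (0.63), of smooth muscle, the last not called without adult array 2 (0.54). The Slc2a1 rise was 1.83 without P7 array 4 and not called with P7 arrays 1 and 3 alone (1.63). The barrier junction gene Cldn5 fell by 1.11 (-0.94 and not called without adult array 1), Eng by 0.92, the endothelial cadherin Cdh5 by 0.90 (-0.69 and not called without adult array 2) and the endothelial receptor Tie1 by 1.03 (-0.67 and not called without adult array 2). A second Tie1 probe set differed by 1.16 without a call. Igf2, made by meninges and choroid plexus, fell by 1.53 and Igfbp2, its binding protein, by 2.20, the latter from between 1505 and 1968 to between 336 and 425.

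Of 22 tested glycolytic genes, 9 were higher and 1 lower (median 0.53), and of 50 genes of oxidative phosphorylation 5 were higher and 6 lower (median -0.02), shares of 10% and 12% beside the 11% and 16.7% of all genes. Ldhb, the lactate dehydrogenase subunit of oxidative tissue, rose from 331, 339, 275 and 328 to 912, 1173 and 1061 (log2 1.72, SE 0.16, adjusted p = 3.2e-06). Ldha, its glycolytic partner, differed by -0.53 and was not called. Eno2, the neuronal enolase, rose by 2.02 and Pfkm by 2.40, the latter from 1285, 276, 142 and 220 to 1706, 1637 and 1794, with P7 array 1 near the adults. Pkm, pyruvate kinase, read 3765, 1096, 2107 and 992 against 4320, 4530 and 3867 (log2 1.30); the call was lost with P7 arrays 1 and 3 alone (0.59) and with no filter (1.09), and a second probe set was not called (0.23). Pygm, a glycogen phosphorylase, rose by 3.54, and 1 gene of the list fell. Without P7 array 1 the rises of Pfkm and Pygm were 3.06 and 4.21. In respiration Sdha rose by 2.03 and Atp5c1 fell by 0.79. Cholesterol synthesis fell in part: of 21 lipid genes 8 were lower (38.1%) and 2 higher (9.5%). Sqle, squalene epoxidase, fell from 1619, 1114, 1816 and 1209 to 334, 344 and 340 (log2 -2.06), with Mvd (-1.50), Hmgcs1 (-1.41), Cyp51 (-1.39) and Fasn (-1.23), while Scd1 (1.13), a fatty acid desaturase, and the sterol exporter Abcg1 (0.67) rose, Scd1 by 2.21 by another probe set.

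Microglial and immune genes rose modestly. Of 19 tested, 9 were higher and 0 lower, with a median of 0.63. Cx3cr1, the fractalkine receptor of microglia, read 71.5 to 107 at P7 and 181 to 188 in adults (log2 1.05). Ctsd, a lysosomal protease, rose by 1.17, Cd68 by 1.13 (0.85 and not called with P7 arrays 1 and 3 alone) and Cd74 by 1.12. B2m, the common light chain of class I molecules, rose by 1.67, from 119, 161, 218 and 181 to 571, 470 and 544 (SE 0.31, adjusted p = 0.0012). B2m and Ctsd are made by many cell types. The other 10 genes were not called and ranged from -0.14 to 0.65, with 3 below 0; among them were Csf1r (0.18), the growth factor receptor microglia depend on, and C1qa of complement (0.63).

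Region markers and neighbouring tissues moved with age as well. Of 19 cerebellar genes, 7 were higher (36.8%) and 3 lower (15.8%), beside 11% and 16.7% of all genes. Ppp1r17 and Car8 of Purkinje cells rose by 2.50 and 1.70, a second Ppp1r17 probe set, at the floor on 3 P7 arrays, was called higher too, and Neurod1 of young granule cells fell by 1.60. Of 9 striatal genes, 3 were higher, led by the enkephalin gene Penk (1.05). The pituitary signal was uneven among adults. Prl read 383, 68.0 and 92.0 on the adult arrays against 10.7 to 47.8 at P7 and was called (2.95, and 2.19 without adult array 1). Gh, growth hormone, read 3657, 142 and 148 in adults against 114 to 171 at P7 and was not called (1.62). The summed signal of the 14 hypothalamus and pituitary genes was 2541 to 3369 at P7 and 2962 to 7295 in adults, the highest on adult array 1. Its part in other results was not tested beyond leaving that array out, which gave 732 rises and 1014 falls. Hcrt, the hypothalamic peptide orexin, was even among adults, at 180, 176 and 165 against 14.8 to 74.4 (log2 2.71). For blood, 1 of 10 genes was called (S100a8, 1.75, not called without P7 array 1, 2 or 3 at 1.53 to 1.56), and the summed signal was 5433 to 9297 at P7 and 5642 to 11580 in adults. Of 10 genes of eye and muscle, 0 were called.

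Some large changes were in genes not yet described. Rgs4, which shortens G-protein signals in cortical neurons, lay at the floor on all P7 arrays and at 121, 273 and 208 in adults, at least 18.8-fold higher (adjusted p = 7.3e-07). Igfbp6 rose by 3.49, Lgi4, a glial ligand in peripheral myelination, by 3.35, and Rbp4, the retinol carrier, by 3.08. Apod, a lipid carrier counted in the myelin list, rose from 89.1, 129, 66.0 and 130 to 1020, 916 and 947 (log2 3.27). For a few genes the probe sets disagreed. Gosr2 rose by 3.65 by 1 probe set and differed by 0.07 and -0.07 by the other 2, and Arpp19 by 2.95 and 0.33. Sipa1 fell to the floor by 1 probe set and was called higher by the other (1.84). Gas5, a host gene of small nucleolar RNAs, was called higher (1.90) on adult signals of 773, 124 and 681, the middle one within the P7 range of 78.8 to 137, and its other probe set was not called (-0.17). It was 2.76 without adult array 2, and not called without adult array 1 or 3 (1.43 and 1.52).

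The age difference in the knockout was set beside that in wild type, which rests on other arrays. In wild type 1080 probe sets were higher (12.9%) and 1479 lower (17.7%). Of the knockout rises 687 were also wild-type rises (67.6% of the knockout list, 63.6% of the wild-type list), and of the falls 1002 were shared (79.4% and 67.7%). The myelin list held 14 rises in the knockout and 12 in wild type, the immature neuron list 25 and 27 falls, and the cell cycle list 21 and 18. Per array, 2 of the wild-type arrays labelled male, P7 array 2 and adult array 1, gave Xist signals of 225 and 394 against at most 23.6 on the other 12, and the knockout arrays gave at most 22.

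**Figure D5:**
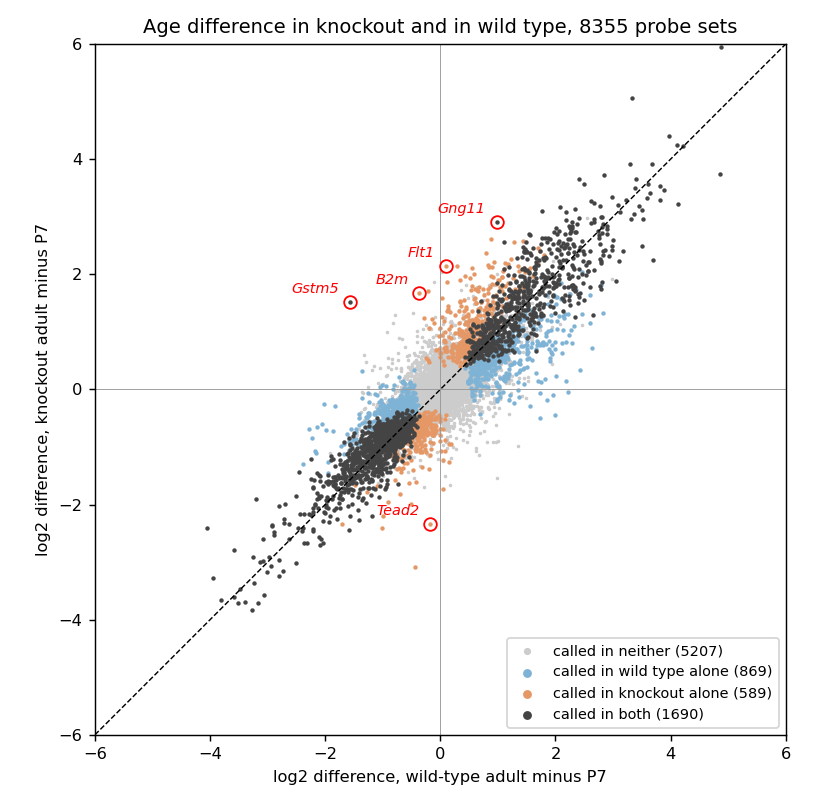
Log2 difference of adult minus P7 signal in knockout (vertical axis) against the same in wild type (horizontal axis) for 8355 probe sets, coloured by call; the dashed line marks equal differences. The cloud follows the line, with 1690 probe sets called in both genotypes, and the circled genes had the smallest p for a difference between genotypes, none of them past the threshold.

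The difference between the genotypes in the age effect was tested in the same limma fit. No probe set passed (0 of 8355, 0%; smallest adjusted p 0.986), and 315 (3.77%) had an unadjusted p under 0.05. The median 95% half-width of the difference, not adjusted for the number of probe sets, was 0.76 on the log2 scale. A call needed more than that: differences of 3.08 (Gstm5) and 2.03 (B2m), given below, did not pass. Large differences in single genes could therefore go undetected with these arrays. Calls in 1 genotype alone therefore do not show a difference between them. The 5 genes of smallest p were Gstm5, B2m, Tead2, Gng11 and Flt1. Gstm5, a glutathione transferase, rose by 1.51 in the knockout and fell by 1.57 in wild type by 1 probe set (difference 3.08, SE 0.66, limma adjusted p = 0.986), the only probe set called in opposite directions. The knockout call was lost without P7 array 3 or 4 or adult array 1 or 2 (1.34 to 1.45). The genotype differences of the other 3 Gstm5 probe sets were 0.33, 0.63 and 1.06. B2m rose by 1.67 in the knockout and differed by -0.37 in wild type, where P7 signals were 326, 165, 278 and 456 and adult signals 331, 214 and 156 (difference 2.03, SE 0.44, adjusted p = 0.986). Tead2, a DNA-binding partner of the Hippo effectors, read 106, 45.6, 113 and 73.4 at P7 and 14.2, 11.1 and 24.8 in adult knockouts, against 66.8 to 70.2 and 42.1 to 83.6 in wild type. Gng11 rose in both genotypes (2.90 and 0.98). Flt1 rose by 2.14 by this probe set and by 0.90 by the other in the knockout, and the wild-type differences were 0.09 and 0.81.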

How the data were processed

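The authors deposited an intensity for each probe set of each array, made with MAS5 per the submitters' processing notes; the version and settings were not given in the sources used here. Deposited 2% trimmed means are equal on all 14 arrays. The 66 control probe sets were left out. Other probe sets reaching the 40th percentile of an array in 3 or more arrays were tested, each array was scaled to equal medians of these, values under the 20th percentile were raised to it and log2 was taken. All 14 arrays entered 1 limma fit (version 3.58.1, R 4.3.3) with 4 group means, a mean-variance trend and Benjamini-Hochberg adjustment over 8355 probe sets, with 10 residual degrees of freedom; the script was tested on simulated data. The number of arrays limits the precision, with a median SE of 0.25.

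Probe sets carry the platform's annotation: 10833 name 1 gene (10817 matched to RefSeq), 396 several and 1193 none, and only the first kind was named. A list counts each gene once, by its probe set of highest mean signal. The members and lists were chosen with earlier results of these data known, so counts are descriptions with no set test. Named genes are the 15 largest rises and falls clear of the floor and without overlap, those at the floor throughout the lower age (6 a direction), the leading called members of each list, the 5 smallest p for a genotype difference and a panel of cell type genes; further list members were named after their values were seen, and those not called mostly appear as counts and ranges. At-least folds set the mean signal of the higher age against the floor. Promoters came from RefSeq windows (GRCm38.p6). Alternatives changed scaling, floor, filter, variance model, probe set choice, replicate block, threshold and arrays.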

Additional observations from a re-analysis of the deposited data

Results flagged for a closer look

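Among the P7 knockout arrays, 18 of 211 probe sets named had 1 array far from the other 3. For normally distributed values chance gives about 1 such group in 20. The values compared were signals before log2 with a floor, so that rate need not hold here. The adult groups of 3 were not examined this way. P7 array 1 stood high for 10 of them. It read 114 for Mobp against 17.9 to 31.8 on the others, 243.6 for Csrp1 against 63.0 to 78.9, 79.83 for Pygm against 10.15 to 14.8, 1285 for Pfkm against 142 to 276 and 1258 for Eno2 against 459 to 568. It also read 955.7 for Ctsd against 497 to 505, 122.1 for Cd68 against 46.8 to 55.2 and 51.83 for Gabrd against 10.15 to 15.2. Gria4 (18.42) and Gabra3 (10.35) were above the floor on P7 array 1 and at it on the other 3, which by itself sets the flag. P7 array 4 stood high for the hypothalamic and pituitary hormones Hcrt (74.38 against 14.8 to 23.4) and Prl (47.78 against 10.67 to 14.8), for S100a8 (51.17 against 10.15 to 10.8), for Tnc (150 against 94.97 to 101) and for Ttr (624.9 against 311 to 344). P7 array 2 stood high for Igfbp3 (159.1 against 49.5 to 61.3) and Impact (83.03 against 32.1 to 37.9). P7 array 3 stood high for Tie1 (80.72 against 72.2 to 73.3).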

How the results depend on the processing

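Of 187 named calls, 23 were lost when some single array was left out, given beside the gene. With P7 arrays 1 and 3 alone 21 were lost, with P7 arrays 2 and 4 alone 11 (among them Mvd and Sparcl1) and with no filter 17 (among them Pvalb and Sparc). Called rises numbered 671 (without adult array 2) to 1117 and falls 897 to 1308 over the 14 fits that leave out 1 array, and no call in either direction changed sign in those fits. A test against 2-fold left 84 rises and 74 falls. Under it the lists kept 5 rises for myelin, 2 for astrocyte, 2 for presynaptic, 2 for glutamate receptor, 1 for GABA and glycine receptor, 4 for channel, 0 for axon cytoskeleton and 5 for late form genes, and 10 falls for immature neuron, 3 for cell cycle, 2 for chromatin, 3 for collagen and 0 for perineuronal net genes, since it tests for a larger difference. With no filter, which also changes the scaling, rises numbered 7 for astrocyte, 6 for presynaptic, 7 for GABA and glycine receptor and 5 for axon cytoskeleton genes. A stricter filter, which tests fewer genes, left 6 rises for GABA and glycine receptor and 7 falls for collagen genes. Glutamate receptor rises numbered 6 with only the knockout arrays in the fit and 5 to 10 leaving out 1 array. Leaving out 1 array, rises numbered 12 to 14 for myelin, 10 to 11 for astrocyte, 7 to 11 for presynaptic, 8 to 12 for GABA and glycine receptor, 9 to 12 for channel, 8 to 14 for axon cytoskeleton and 11 to 15 for late form genes, and falls 24 to 29 for immature neuron, 15 to 25 for cell cycle, 7 to 12 for chromatin (7 without adult array 2), 9 to 13 for collagen and 8 to 11 for perineuronal net genes. Axon cytoskeleton rises numbered 7 with P7 arrays 1 and 3 alone. The count called for a genotype difference was 0 here, 2 with a higher floor, 9 with no filter, 1 with array weights, 5 with P7 arrays 1 and 3 alone, and 0 to 1 leaving out 1 array. The cause of these shifts was not tested except where stated.

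The replicate numbers do not pair the arrays: same-numbered knockout arrays of the 2 ages deviated from their group means with correlations of -0.13, -0.08 and -0.01. With the replicate number as a block, 941 rises and 1122 falls were called, 6 rises remained in the glutamate receptor list and Apoe turned to -0.17.

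Of the named probe sets, 13 changed sign under some alternative, 11 of them uncalled. With no filter and the scaling that comes with it, Aqp4 turned to -0.0483, Apoe to -0.14, Gja1 to -0.20 and Csf1r to -0.0333. Cntn1 turned to 0.0405 after quantile normalization, Grin2b to -0.0233 with a higher floor and Gja1 to -0.0824 with array weights. When a gene's probe sets were averaged, Reln, called lower here, turned to 0.30, Tie1, also called lower, to 0.0649 and Sox10 to 0.17. With P7 arrays 1 and 3 alone, Grin2b turned to -0.38, a Mki67 probe set to 0.0319, Gsn to -0.0507, Apoe to -0.42 and C1qa to -0.0410. With P7 arrays 2 and 4 alone, Aqp4 turned to -0.0041, Gria2 to -0.15 and Gja1 to -0.35. Leaving out 1 array, Gja1 lay between -0.18 and 0.15 and Apoe between -0.21 and 0.30.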

Other observations

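Over all genes, 11% were called higher and 16.7% lower with age in the knockout brains. Of 38 heat shock and proteasome genes tested, 5 rose (13.2%) and 6 fell (15.8%), near those shares, so single genes only are described. Hspa1b, an inducible heat shock chaperone, read 23.46, 10.15, 26.73 and 10.15 on the P7 arrays and 153.1, 112.3 and 156.4 on the adult arrays, a rise of 3.13 that separates the ages. Among subunits of the proteasome, which degrades ubiquitinated proteins, Psma7 of the catalytic core fell by 1.34 and Psmc1, an ATPase of the regulatory particle, rose by 1.21. Of 34 Wnt, Notch and morphogen genes, 1 rose (2.9%) and 7 fell (20.6%), the latter also near the share of all genes. The riser was Dkk3, of the Dickkopf family, by 1.67. The Wnt receptor Fzd2 fell by 1.33, and Ctnnb1, which encodes beta-catenin, fell from 2336 to 3111 on the P7 arrays to 1086 to 1558 on the adult arrays, a difference of -1.06.

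Of 24 activity-regulated and neurotrophin genes, 6 rose and 1 fell (median 0.45). The neurotrophin-3 receptor gene Ntrk3 rose by 2.12, with P7 array 1 at 63.01 and the other P7 arrays at 10.15 to 22.08 against 77.41 to 117.9 in adults; it was not called without adult array 2 (1.94). Nr4a1, an immediate early gene, rose by 1.05, and Jund, of the AP-1 family, fell by 0.69. Of 19 imprinted and growth factor genes, 1 rose (Impact, 1.85) and 5 fell (median -0.23). Ndn, which encodes the paternally expressed protein necdin, read 2949 to 3280 at P7 and 1266 to 1592 in adults, a fall of 1.15, while its other probe set, at -0.66, was not called. Igfbp3, a carrier of insulin-like growth factors, fell by 2.26 on one probe set and was not called on the other, at 0.30.

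Of 7 choroid plexus and ependyma genes, 2 rose and 1 fell. Kl, which encodes klotho, was at the floor of 10.15 on all 4 P7 arrays and read 73.18, 35.01 and 87.98 in adults. Ttr, the thyroid hormone carrier of choroid plexus, rose by 1.10. Of 23 citrate cycle and mitochondrial carrier genes, 4 rose (17.4%), 3 fell (13%) and 16 were not called. Idh3g, a subunit of the mitochondrial NAD-linked isocitrate dehydrogenase, rose by 1.25 and the cytosolic Idh1 fell by 1.48. Of 20 translation factor and nucleolus genes, 0 rose and 5 fell (median -0.24), led by Nhp2, a small nucleolar ribonucleoprotein, which fell by 1.42. All calls are limma's after Benjamini-Hochberg adjustment over 8355 probe sets.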
